A study of Mus musculus with 6 samples.

Results

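D cyclins, inhibitors of cyclin-dependent kinases (CDKs) and genes of the p53 axis were examined in RNA from whole pancreatic islets. The group was set by gene symbol and held 10 of the 54556 genes in the table, namely Ccnd1, Ccnd2 and Ccnd3 (D cyclins), Cdkn1a, Cdkn1b, Cdkn2a and Cdkn2c (CDK inhibitors), and Trp53, Mdm2 and Plk2 (p53 axis). There were 3 libraries labelled β-Mettl3-KO, carrying 2 floxed Mettl3 alleles and RIP-Cre (Cre driven by the rat insulin promoter), and 3 libraries of Mettl3 flox/flox mice without a Cre in their label. All were C57BL/6 mice at 8 weeks of age on normal chow. There was no group with Cre and intact Mettl3, so Cre and the deletion cannot be told apart. Whether a library held pooled mice is not labelled, so p-values cover the spread between libraries, which may be technical. The METTL3 protein is the methyltransferase behind N6-methyladenosine on mRNA, and the comparison asks how its deletion in β cells changes islet gene expression.

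D cyclins bind CDK4 and CDK6, and the active kinases phosphorylate the retinoblastoma protein, which frees E2F factors to start DNA replication. Inhibitors of the INK4 class (here Cdkn2a and Cdkn2c) bind CDK4 and CDK6, while those of the Cip/Kip class (Cdkn1a and Cdkn1b) bind cyclin-CDK complexes more broadly. In mouse islets cyclin D2 is the D cyclin on which β-cell expansion after birth depends, and Cdkn2a is known for its rise with age.

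Mettl3 itself had 4.06, 4.201 and 4.15 FPKM (fragments per kilobase of gene, scaled for library size) in the libraries labelled knockout and 3.42, 2.89 and 3.93 FPKM in the flox/flox libraries. It was thus not lower in the libraries labelled knockout (log2 difference 0.25 ± 0.11 SE, limma adjusted p = 0.12), and the table does not check their genotype. Reads recovered from the table came to 16719393 to 18387313 per library labelled knockout and 16398862 to 17691055 per flox/flox library. The defining β-cell markers Ins1, Ins2 and others were present in every library. The 10 β-cell markers summed to 160886 to 173248 CPM (reads scaled to each library's own total reads) in libraries labelled knockout, against 276634 to 335434 in flox/flox libraries. By the FPKM test 9 of the 10 were lower and 0 higher. CPM sums and FPKM calls are on different scales. The FPKM divisor was 1.13 to 1.17 times the own total in libraries labelled knockout and 0.855 to 0.885 times in flox/flox libraries. CPM sums thus set libraries labelled knockout higher against flox/flox than FPKM does. Of 14 lymphocyte markers 11 were tested and 11 were higher, with sums of 399 to 442 CPM in libraries labelled knockout and 19.6 to 28.1 in flox/flox libraries. Of 15 enterocyte markers 14 were tested and 12 were higher, with sums of 516 to 2249 against 191 to 207 CPM. The 10 endothelial markers were lower in 10 of 10 cases, with sums of 1460 to 1775 CPM in libraries labelled knockout and 2047 to 2271 CPM in flox/flox libraries. The part of such cells in the differences below was not tested. In bulk islets, fewer cells of a type and less RNA per cell cannot be told apart.

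Of the 10 genes, 2 were lower in the libraries labelled knockout, Ccnd2 and Plk2, and 0 were higher. Cdkn2a was under the expression minimum (a mean of 1 FPKM over all libraries) and was not tested, and the other 7 did not pass the threshold (limma adjusted p under 0.05 over all 14497 tested genes; 0.115 to 0.718). At an unadjusted p under 0.05 the counts were also 2 lower and 0 higher, and voom in limma on recovered reads likewise gave 2 and 0. Over all tested genes 34% were called, with 17.2% lower and 16.9% higher, so the count among the 9 tested genes was near the background. The median log2 difference was 0.04 over the 9 genes and -0.0045 over all tested genes. The groups did not overlap for 3 of the 9 genes (Ccnd2, Cdkn1b and Plk2, all below), against 50.5% of all tested genes, of which 25.4% lay below and 25.1% above.

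**Figure D1:**
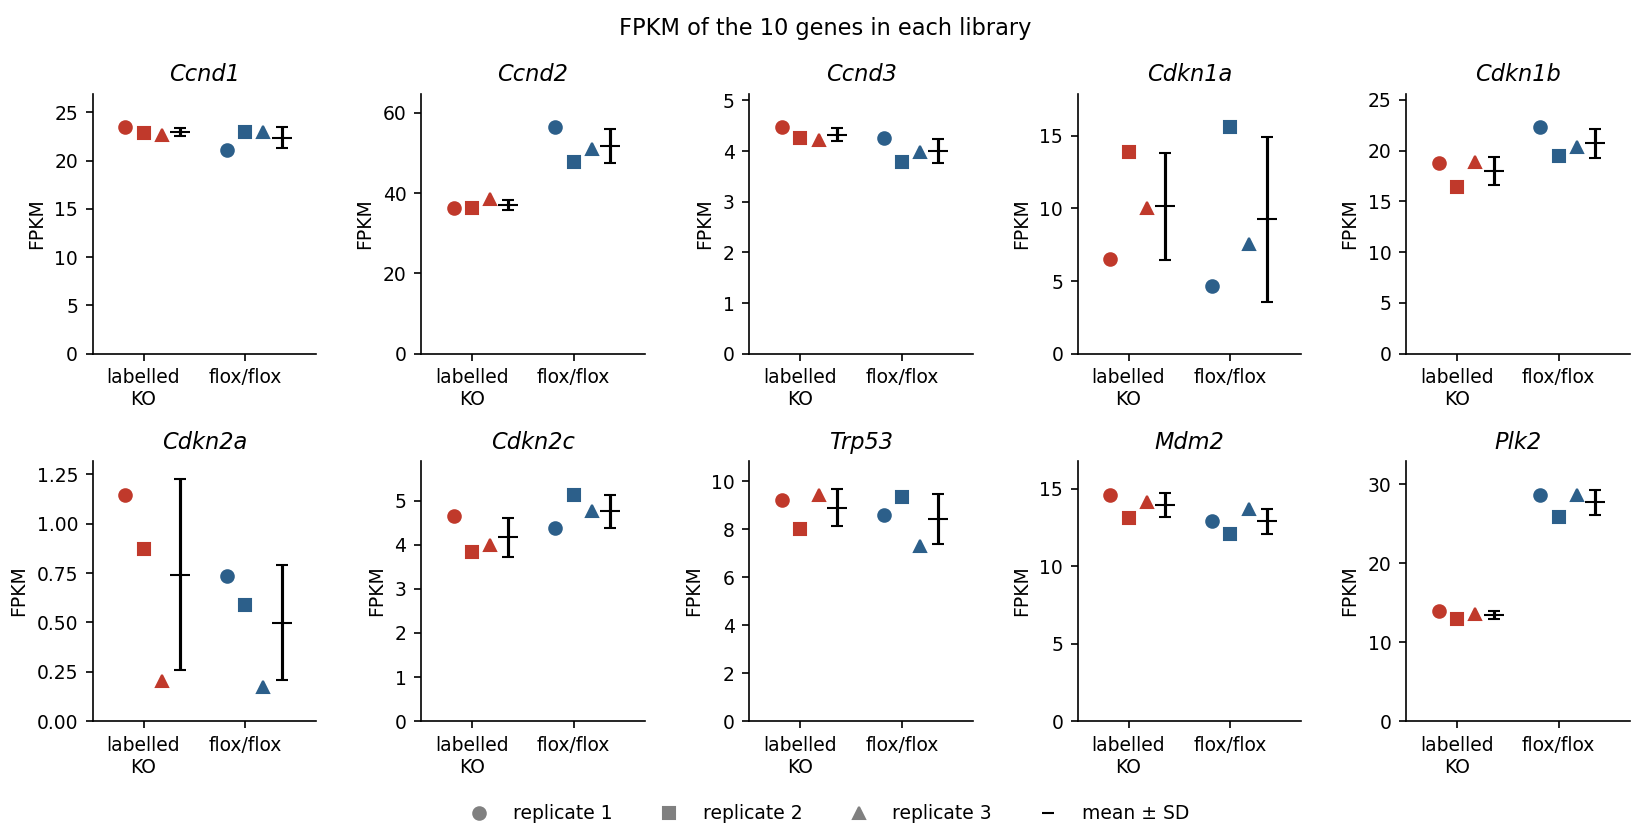
FPKM of each of the 10 genes in each library, on linear axes from 0, with red symbols for libraries labelled knockout on the left, blue for flox/flox on the right, a symbol shape for each replicate number and bars for the mean ± SD (n = 3). Ccnd2 and Plk2 lie below the flox/flox values in all 3 libraries labelled knockout, and Cdkn1a spreads widely in both groups.

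Ccnd2, the cyclin D2 gene (ENSMUSG00000000184, GRCm38 chromosome 6 from 127125162 to 127152193, minus strand), was the most abundant of the 10 per length in both groups. It had 36.4, 36.3 and 38.6 FPKM in the libraries labelled knockout and 56.4, 47.8 and 50.9 FPKM in the flox/flox libraries. All 3 libraries labelled knockout lay below all 3 flox/flox libraries. The mean of 37.1 ± 1.30 FPKM in libraries labelled knockout was 0.717 times the 51.7 ± 4.32 FPKM in flox/flox libraries (SD, n = 3 each), a log2 difference of -0.47 ± 0.08 (SE, limma adjusted p = 0.00558). The call held in the 6 fits that each left out 1 library (-0.53 to -0.41, adjusted p = 0.00799 to 0.0245). Without replicates 2 and 3 labelled knockout, which leaves 1 library in that group, the difference of Ccnd2 was -0.50. Ranked by size, its fall was number 1456 of the 2489 genes called lower.

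Ccnd1, the cyclin D1 gene (ENSMUSG00000070348, chromosome 7 from 144929931 to 144939925, minus strand), was nearly level between the groups. It had 23.4, 22.8 and 22.7 FPKM in the libraries labelled knockout and 21.1, 23.0 and 23.0 FPKM in the flox/flox libraries. The ranges overlapped, and the log2 difference of 0.04 had a 95% interval of -0.11 to 0.19 (limma adjusted p = 0.66). Its spread within groups was among the smallest of all tested genes (percentile 5.28 of the within-group SD). Of its annotated exon bases, 23.4% are shared with Oraov1 on the opposite strand. Whether counting used strand, and how reads in shared bases were counted, is not given in the sources used here. Some Ccnd1 reads may thus belong to Oraov1, or reads of Ccnd1 may be missing there. Oraov1 had 3.06 ± 0.348 FPKM in libraries labelled knockout and 2.79 ± 0.36 FPKM in flox/flox libraries.

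Ccnd3, the cyclin D3 gene (ENSMUSG00000034165, chromosome 17 from 47505051 to 47599691, plus strand), was the lowest of the D cyclins. It had 4.47, 4.27 and 4.23 FPKM in the libraries labelled knockout and 4.26, 3.79 and 3.98 FPKM in the flox/flox libraries. Replicates 1 and 2 labelled knockout were above every flox/flox library, replicate 3 was not, and the difference of 0.10 (95% interval -0.08 to 0.28) did not pass (limma adjusted p = 0.36). It shares 4.11% of its exon bases with Bysl on the opposite strand.

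Summed over the 3 D cyclins, the level was 64.4 ± 1.06 FPKM in libraries labelled knockout and 78.1 ± 3.56 FPKM in flox/flox libraries (SD, n = 3 each). Ccnd2 made up 56.6%, 57.3% and 58.9% of that sum in the libraries labelled knockout and 69.0%, 64.1% and 65.4% in the flox/flox libraries. Ccnd1 made up 36.5%, 36.02% and 34.6% in libraries labelled knockout, against 25.8%, 30.8% and 29.5% in flox/flox libraries. Ccnd3 made up 6.71 ± 0.249% in libraries labelled knockout and 5.13 ± 0.0701% in flox/flox libraries. The shares of each D cyclin did not overlap between the groups, and Ccnd2 stayed the largest in every library. These shares are parts of one sum, so a lower Ccnd2 share by itself raises the others. The FPKM ranges of Ccnd1 and of Ccnd3 overlapped between the groups. A share within a library does not depend on how libraries are scaled.

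**Figure D2:**
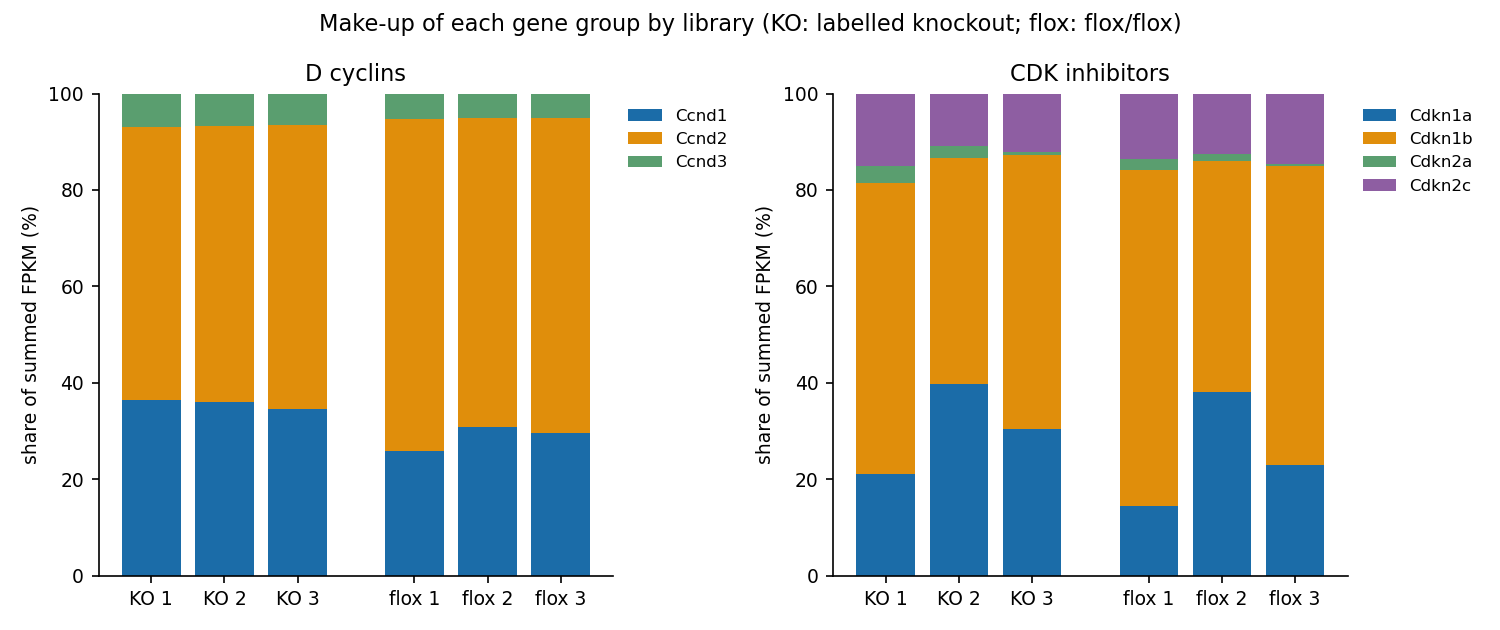
Share of each gene in the summed FPKM of the 3 D cyclins (left) and of the 4 CDK inhibitors (right), in percent, with 1 bar per library and the libraries labelled knockout left of the flox/flox libraries. Ccnd2 takes 56.6% to 58.9% of the D cyclin bars labelled knockout and 64.1% to 69.0% of the flox/flox bars, while the Cdkn1a share differs more between replicates than between groups.

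Cdkn1b, which encodes the Cip/Kip inhibitor p27 (ENSMUSG00000003031, chromosome 6 from 134920401 to 134925513, plus strand), was the most abundant CDK inhibitor in every library. It had 18.8, 16.4 and 18.9 FPKM in the libraries labelled knockout and 22.3, 19.5 and 20.4 FPKM in the flox/flox libraries. Its groups did not overlap, but the log2 difference of -0.20 ± 0.08 (SE) did not pass (limma adjusted p = 0.115, 95% interval -0.40 to 0.00396), and its sign turned to 0.20 when libraries were scaled to their own total reads (adjusted p = 0.062).

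Cdkn2c, which encodes the INK4 inhibitor p18 (ENSMUSG00000028551, chromosome 4 from 109660876 to 109667189, minus strand), had 4.66, 3.83 and 4.003 FPKM in libraries labelled knockout and 4.38, 5.13 and 4.76 FPKM in flox/flox libraries. Replicates 2 and 3 labelled knockout were below every flox/flox library and replicate 1 was not. The log2 difference was -0.17 (95% interval -0.41 to 0.06, limma adjusted p = 0.217), and own-total scaling turned it to 0.19 (adjusted p = 0.14).

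Cdkn1a, which encodes the Cip/Kip inhibitor p21, the classical p53 target (ENSMUSG00000023067, chromosome 17 from 29090979 to 29100722, plus strand), varied more within the groups than between them. It had 6.54, 13.9 and 10.04 FPKM in replicates 1 to 3 labelled knockout and 4.64, 15.6 and 7.51 FPKM in replicates 1 to 3 of flox/flox. In both groups replicate 2 was the highest and replicate 1 the lowest. Its within-group SD of 0.69 on the log2 scale was at percentile 95.4 of all tested genes. The log2 difference of 0.23 ± 0.44 (SE) had a 95% interval of -0.82 to 1.28 (limma adjusted p = 0.718), the widest of the 9. The difference was -0.15 without flox/flox replicate 1 (adjusted p = 0.808), -0.02 without replicate 2 labelled knockout (adjusted p = 0.983) and 0.67 without flox/flox replicate 2 (adjusted p = 0.191).

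Sums of markers of other cell types were set beside the Cdkn1a values. The 15 enterocyte markers summed to 516, 2249 and 1248 CPM in replicates 1 to 3 labelled knockout, the order of Cdkn1a there, and to 207, 191 and 202 in replicates 1 to 3 of flox/flox, where the order differed; of these markers Alpi had no read in any flox/flox library. The 10 acinar markers summed to 930, 506 and 705 CPM in replicates 1 to 3 labelled knockout and to 846, 2689 and 1444 in replicates 1 to 3 of flox/flox, the order of Cdkn1a in the flox/flox group. Of the 10 acinar markers 9 were lower and 0 higher in libraries labelled knockout. All marker lists were then looked through for the order of Cdkn1a. Sums of 3 other marker lists had that order in both groups. Sums of β-cell, alpha cell, delta cell and macrophage markers had the reverse order in both groups. Alpha cell markers, for example, summed to 20069, 13807 and 16993 CPM in replicates 1 to 3 labelled knockout and 13260, 8974 and 11931 in flox/flox. The remaining lists had neither order in both groups. The 8 ductal markers summed to 930, 1076 and 960 CPM in replicates 1 to 3 labelled knockout and to 525, 757 and 578 in replicates 1 to 3 of flox/flox, and 1 of 7 tested was called higher. The 8 plasma cell markers summed to 1778, 3041 and 2252 CPM in replicates 1 to 3 labelled knockout. In replicates 1 to 3 of flox/flox they summed to 289, 331 and 299, with Tnfrsf17 at 0 in every flox/flox library, and 5 of 7 tested were called higher. The flox/flox order was that of Xbp1 (4335, 4707 and 4359 reads) and Derl3 (284, 517 and 328), the 2 tested markers not called. Xbp1 held most of those reads. Igha (184, 11 and 97 reads), Igkc (119, 57 and 90), Ighm and Jchain were instead lowest in replicate 2 of flox/flox. The 10 endothelial markers summed to 1460, 1775 and 1560 CPM in replicates 1 to 3 labelled knockout and to 2047, 2271 and 2215 in replicates 1 to 3 of flox/flox, and all 10 were called lower. On the FPKM scale of the calls, sums of libraries labelled knockout would stand lower against flox/flox than these own-total sums. The part of these cell types in the Cdkn1a values was not tested.

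**Figure D3:**
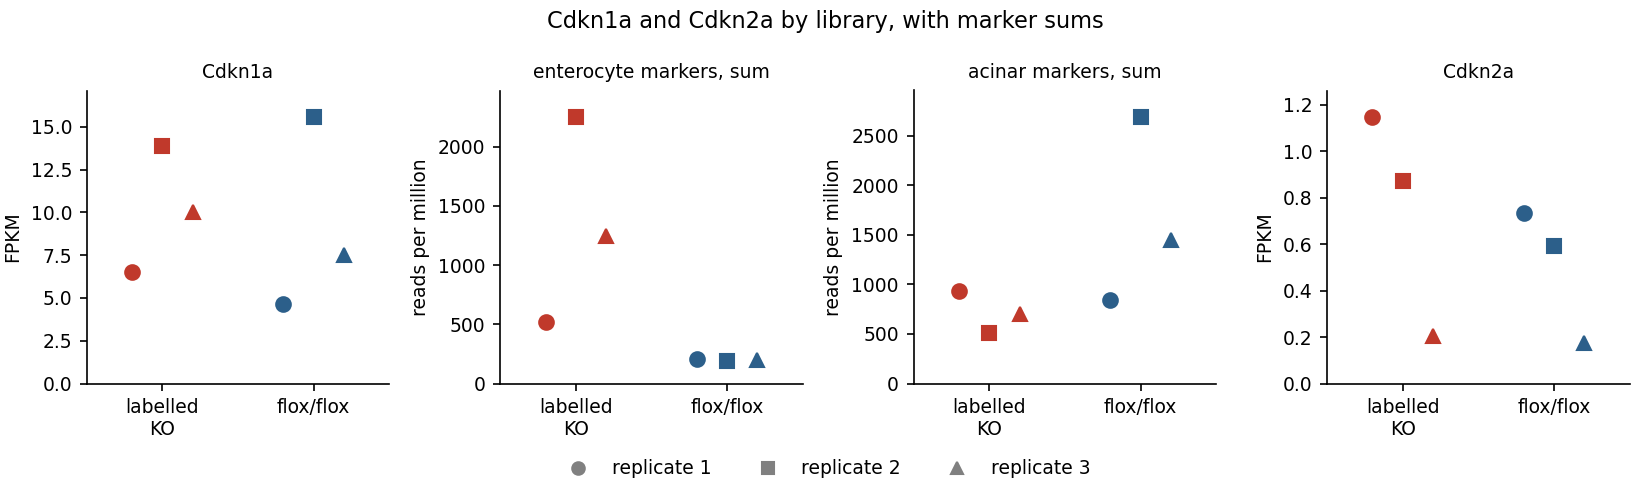
Cdkn1a (FPKM), summed enterocyte markers and summed acinar markers (CPM) and Cdkn2a (FPKM) in each library, on linear axes from 0, with libraries labelled knockout left of flox/flox and a symbol shape for each replicate number. Replicate 2 is the highest for Cdkn1a in both groups, for enterocyte markers in the group labelled knockout and for acinar markers in flox/flox, and Cdkn2a is highest in replicate 1 and lowest in replicate 3 of both groups.

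Cdkn2a, whose locus encodes the INK4 inhibitor p16 and, in another reading frame, ARF, which restrains MDM2 (ENSMUSG00000044303, chromosome 4 from 89274471 to 89294653, minus strand), was close to the detection limit. It had 28, 20 and 5 reads (1.146, 0.873 and 0.206 FPKM) in libraries labelled knockout and 13, 10 and 3 reads (0.733, 0.591 and 0.172 FPKM) in flox/flox libraries. The ranges overlapped, and replicate 3 was the lowest in both groups. Reads were summed over the gene, so p16 and ARF transcripts cannot be told apart. Tested without the expression minimum, it was at 0.27 ± 0.40 on the log2 scale (SE, limma adjusted p = 0.693).

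Trp53, the gene of p53 (ENSMUSG00000059552, chromosome 11 from 69580359 to 69591873, plus strand), had 9.24, 8.00 and 9.43 FPKM in the libraries labelled knockout and 8.61, 9.36 and 7.31 FPKM in the flox/flox libraries. The ranges overlapped, with a log2 difference of 0.08 (95% interval -0.19 to 0.34, limma adjusted p = 0.628). p53 acts mainly through the stability of the protein, which an mRNA level does not show.

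Mdm2, a p53 target that encodes the ubiquitin ligase for p53 (ENSMUSG00000020184, chromosome 10 from 117688875 to 117710758, minus strand), had 14.6, 13.1 and 14.1 FPKM in the libraries labelled knockout and 12.9, 12.1 and 13.7 FPKM in the flox/flox libraries. Replicates 1 and 3 labelled knockout were above every flox/flox library and replicate 2 was not, and the log2 difference of 0.11 (95% interval -0.07 to 0.29) did not pass (limma adjusted p = 0.308).

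Plk2, a stress- and serum-inducible polo-like kinase that is a p53 target (ENSMUSG00000021701, chromosome 13 from 110395046 to 110400844, plus strand), showed the largest difference of the 9 tested genes with the deposited scaling. It had 14.0, 12.96 and 13.6 FPKM in the libraries labelled knockout and 28.7, 25.9 and 28.6 FPKM in the flox/flox libraries. Every library labelled knockout was below every flox/flox library, and the spread within each group was small. The mean of 13.5 ± 0.511 FPKM in libraries labelled knockout was 0.487 times the 27.7 ± 1.59 FPKM in flox/flox libraries (SD, n = 3 each). That is a log2 difference of -1.01 ± 0.07 (SE, limma adjusted p = 0.000257), number 380 by size of the 2489 genes called lower, of which 384 fell by at least 1. It was -1.06 to -0.98 in the 6 fits that each left out 1 library (limma adjusted p = 0.000924 to 0.00324). Without replicates 2 and 3 labelled knockout, which leaves 1 library in that group, it was -0.96.

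Plk2 and Cdkn1a, both p53 targets, are set side by side by sequence because Plk2 was called lower and Cdkn1a was not. The lack of a call for Cdkn1a came with a wide 95% interval, -0.82 to 1.28. The windows run from 250 bases before to 50 bases after an annotated start (RefSeq, GRCm38), the Plk2 window at chr13:110394794-110395093 and the upstream Cdkn1a window at chr17:29090729-29091028, both on the plus strand. Capitals mark the cyclic AMP response element TGACGTCA in Plk2, and in Cdkn1a 10-base elements of the p53 response sequence.
Plk2: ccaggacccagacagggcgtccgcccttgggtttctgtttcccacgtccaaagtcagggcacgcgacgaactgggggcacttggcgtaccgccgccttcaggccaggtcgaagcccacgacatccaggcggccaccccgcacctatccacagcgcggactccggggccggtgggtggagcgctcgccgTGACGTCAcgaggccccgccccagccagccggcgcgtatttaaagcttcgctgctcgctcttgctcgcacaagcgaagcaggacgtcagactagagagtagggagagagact
Cdkn1a: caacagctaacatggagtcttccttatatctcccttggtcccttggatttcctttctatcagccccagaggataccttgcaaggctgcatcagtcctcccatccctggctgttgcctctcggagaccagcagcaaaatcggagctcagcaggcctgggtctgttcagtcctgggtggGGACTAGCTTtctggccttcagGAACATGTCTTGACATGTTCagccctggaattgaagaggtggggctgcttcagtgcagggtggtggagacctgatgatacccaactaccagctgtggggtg
A p53 site was counted where a pair of such 10-base elements lay at most 13 bases apart with at most 1 mismatch to the consensus in all and the core C and G of each intact, on either strand. The window of the other Cdkn1a start, chr17:29093519-29093818, held 0 p53 sites. The printed Cdkn1a window held 2 such pairs that share an element. The first of them matched with 0 mismatches across a spacer, and the second, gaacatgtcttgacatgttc, was contiguous with 1 mismatch. Of all 32851 windows of this length, 0.627% held a p53 site and 1.79% held TGACGTCA on either strand. The table gave 12 windows for 8 of the 10 genes, and p53 sites lay in 1 of the 12 windows and TGACGTCA in 1. The motifs were chosen with the windows in view, a match is a description of letters, and the lack of a match says nothing of binding.

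Since METTL3 acts on RNA, the letters GGACT, a common form of the methylation motif, were counted on the transcript strand in the longest coding transcript of each gene (GENCODE M21). Plk2 held 6 in 2800 bases, or 2.14 per kilobase, which was percentile 90.7 of 11863 tested coding genes. Cdkn1a held 4 in 2080 bases (1.92 per kilobase, percentile 86.6), and Ccnd2 held 6 in 6330 bases (0.948 per kilobase, percentile 43.3). Trp53 held 0 in 1867 bases and Cdkn2a held 0 in 895 bases. The median was 1.05 per kilobase over tested coding genes, 1.11 over those called lower and 1.09 over those called higher, and no methylation was measured.

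**Figure D4:**
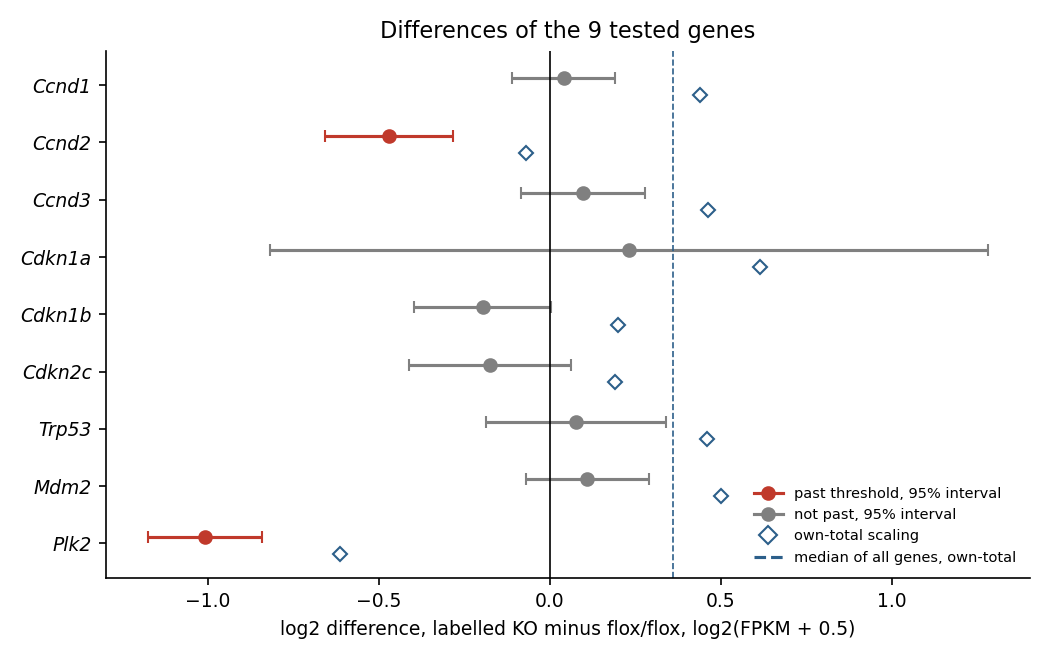
Log2 difference of the 9 tested genes, labelled knockout minus flox/flox, as circles with 95% intervals (red past the threshold, grey not past), and under own-total scaling as open diamonds. Ccnd2 and Plk2 lie below 0, and own-total scaling moves all 9 genes up along with the median of all tested genes (dashed line, 0.36), which turns Cdkn1b and Cdkn2c to above 0.

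The reading depends on how libraries are scaled. The deposited values hold the typical gene level between groups. When each library was scaled to its own total reads, of which insulin transcripts take a large part, the median log2 difference of all tested genes moved up by 0.364. Plk2 was then still lower (-0.61, limma adjusted p = 0.000601), while Ccnd2 was at -0.07 (adjusted p = 0.441), which is below the median of all genes (0.36). Cdkn1a was then at 0.61 (adjusted p = 0.275), as far from 0 as Plk2. Ccnd1, Ccnd3, Trp53 and Mdm2 were then called higher at 0.44, 0.46, 0.46 and 0.50 (adjusted p = 0.0022, 0.00224, 0.0102 and 0.00179), near that median.

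Per length, the order of levels in libraries labelled knockout was Ccnd2, Ccnd1, Cdkn1b, Mdm2, Plk2, Cdkn1a, Trp53, Ccnd3, Cdkn2c and Cdkn2a, with ranges that overlapped between neighbours from Mdm2 to Trp53 and between Ccnd3 and Cdkn2c. In flox/flox libraries Plk2 stood second, above Ccnd1, and the ranges of Ccnd1 and Cdkn1b, and of neighbours from Mdm2 to Trp53, overlapped. The genes with profiles over the 6 libraries most like that of Plk2, among 7064 genes with a mean of at least 5 FPKM, were Cabp1, Akr1c19 and Tle3. Their centred log2 values differed from those of Plk2 by a root mean square of 0.0532, 0.0543 and 0.0545.

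The kinase partners of the D cyclins were read from lists of other pathway genes. Cdk4, the main D cyclin partner in mouse β cells, had 31.96, 31.5 and 29.5 FPKM in libraries labelled knockout and 56.6, 53.3 and 54.8 FPKM in flox/flox libraries. Every library labelled knockout was below every flox/flox library, and Cdk4 fell by 0.82 ± 0.06 on the log2 scale (SE, limma adjusted p = 0.000361). It was still lower after own-total scaling, at -0.41 (limma adjusted p = 0.00144). Without replicates 2 and 3 labelled knockout, which leaves 1 library in that group, Cdk4 was at -0.77. Cdk2, the partner of cyclins E and A, rose by 0.53 ± 0.13 (adjusted p = 0.0224), a call lost without replicate 1 or 3 labelled knockout (adjusted p = 0.0515 and 0.0933). In the list of G1 CDKs and cyclin E, 1 of 5 tested genes rose, 1 fell and 3 stayed under the threshold. With own-total scaling 4 were higher and 1 lower. Beside this and the list counts below stand 16.9% higher and 17.2% lower over all tested genes. With own-total scaling 7550 of all 14497 were higher and 716 lower. List counts near these shares are not read as results about the lists.

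Among retinoblastoma and E2F genes 2 of 11 rose, near the 16.9% of all tested genes, and 0 fell. With own-total scaling 10 rose and 0 fell. E2f2, an activator of replication genes, rose to 3.66 ± 0.302 FPKM in libraries labelled knockout, against 1.33 ± 0.165 FPKM in flox/flox libraries (log2 difference 1.19 ± 0.12 SE, limma adjusted p = 0.000908). Rbl2, a retinoblastoma-related pocket protein, rose by 0.32 (adjusted p = 0.0242), a call lost in every fit that left out 1 library except that without flox/flox replicate 2 (adjusted p = 0.0537 to 0.0841). Of 11 tested genes of S and M phase 8 rose and 0 fell, with a median of 1.11, and with own-total scaling 11 and 0. The number that rose was 5 to 9 in the 6 fits that each left out 1 library, with 5 without replicate 2 labelled knockout. Bub1b, a mitotic checkpoint kinase, Mki67, a proliferation marker, and Birc5, a mitotic regulator, rose by 1.44, 1.43 and 1.25 (adjusted p = 0.00189, 0.0034 and 0.00466). Bub1b and Birc5 had flox/flox means of 0.491 and 0.476 FPKM. They reached the 1 FPKM minimum only through libraries labelled knockout, so their part in the count leans on the filter. Birc5 was tested in 5 of the 6 fits that each left out 1 library. The other genes of this list called higher had flox/flox means of 1.27 to 2.42 FPKM. The fit without replicates 2 and 3 labelled knockout leaves 1 library in that group. Calls lost there are not read as a result about S and M phase genes. Lymphocyte, plasma cell and enterocyte marker sums were higher in each of the 3 libraries labelled knockout than in flox/flox, as given above. Of 7 tested stellate cell and fibroblast markers 5 were called higher and 1 lower, with sums of 217, 228 and 229 CPM in replicates 1 to 3 labelled knockout and 101, 146 and 130 in replicates 1 to 3 of flox/flox. The part of these cells in the rises of S and M phase genes was not tested.

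The remaining CDK inhibitors did not pass, with 0 of 3 called. Cdkn1c was at -0.44 (limma adjusted p = 0.0697), Cdkn2b at -0.0028 (adjusted p = 0.992) and Cdkn2d at -0.03 (adjusted p = 0.771). With own-total scaling 1 was called higher. Of 6 tested ubiquitin ligase genes for D cyclins and p27, 1 fell and 0 rose, and with own-total scaling 0 and 3. That gene was Fbxo31, an F-box protein that targets cyclin D1, at -0.38 (adjusted p = 0.0277), and it lost the call without flox/flox replicate 1 or 3 or replicate 2 or 3 labelled knockout (adjusted p = 0.0682 to 0.0917). Of 7 tested chromatin regulators of CDK inhibitor genes 2 rose and 1 fell, and with own-total scaling 6 and 0. Ezh2, the Polycomb methyltransferase that silences Cdkn2a, was at 0.69, Kmt2a, a histone methyltransferase that acts with menin, at 0.34, and Ring1, a Polycomb ubiquitin ligase, at -0.24 (adjusted p = 0.0223, 0.0317 and 0.0386). Each lost its call in 5 of the 6 fits that left out 1 library, the exceptions being flox/flox replicate 2 for Ezh2 and replicate 1 labelled knockout for Kmt2a and Ring1 (highest adjusted p = 0.0874, 0.104 and 0.135). Ezh2 reached the 1 FPKM minimum only through libraries labelled knockout (flox/flox mean 0.896 FPKM). Ring1 turned to 0.15 with own-total scaling (adjusted p = 0.0993). Men1, of menin, and Skp2 are listed at 0 in all 6 libraries, and no level is read from these zeros.

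Of 24 tested p53 targets outside the 10 genes, 5 rose, 2 fell and 17 stayed under the threshold; with own-total scaling 14 rose and 1 fell. The 7 called of 24 stand beside 34% of all tested genes, and the 15 called with own-total scaling beside 8266 of all 14497, so both shares are near the background. Without replicate 3 labelled knockout 2 of these targets were called higher, and the number called lower was 1 to 3 over the 6 fits that each left out 1 library. The 2 BH3-only death genes among them went opposite ways. Pmaip1 (NOXA) had 2.34, 4.12 and 2.79 FPKM in libraries labelled knockout and 0.699, 0.732 and 0.382 FPKM in flox/flox libraries (log2 difference 1.68 ± 0.24 SE, limma adjusted p = 0.00306). It reached the 1 FPKM minimum only through libraries labelled knockout. Bbc3 (PUMA) had 10.2, 11.4 and 10.8 FPKM in libraries labelled knockout and 22.3, 15.9 and 21.0 FPKM in flox/flox libraries (-0.83 ± 0.13, adjusted p = 0.00468). Perp, a desmosome-linked effector found in epithelia, rose by 1.00 (adjusted p = 0.0217), a call lost without replicate 2 or 3 labelled knockout or flox/flox replicate 3 (adjusted p = 0.0509, 0.0751 and 0.0678). Zmat3, Aen and Polk also rose (0.43, 0.54 and 0.44) and Tigar fell (-0.27), named here to complete the count after their values were seen. These targets also lost their calls without replicates 2 and 3 labelled knockout. That fit leaves 1 library in the group, so the loss is not read as a result about them.

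Of 10 tested p53 regulators and family members 1 rose and 0 fell, and with own-total scaling 7 and 0. Hipk2, a kinase that phosphorylates p53, was at 0.58 (limma adjusted p = 0.023), and it lost its call in every fit that left out 1 library except that without replicate 1 labelled knockout (adjusted p = 0.0514 to 0.0888). Among the other polo-like kinases 2 were tested. Plk1, a mitotic kinase, rose by 0.88 ± 0.16 (SE, adjusted p = 0.00853), and Plk3, like Plk2 stress-inducible, fell by 0.55 ± 0.11 (adjusted p = 0.0107). With own-total scaling Plk1 stayed higher and Plk3 was at -0.16 (adjusted p = 0.287).

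**Figure D5:**
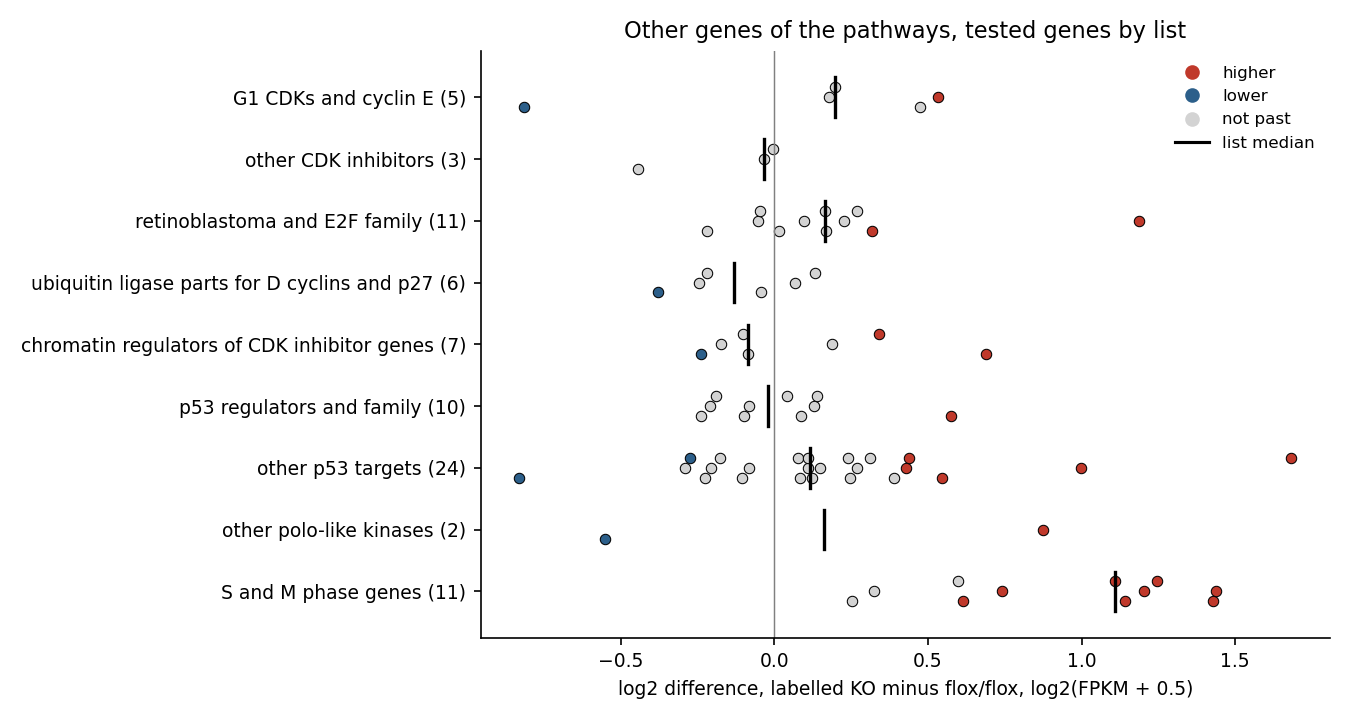
Log2 difference, labelled knockout minus flox/flox, of each tested gene (circle) in the 9 pathway lists, with the number tested in brackets, black bars for list medians, red for higher, blue for lower and grey for not past the threshold. Genes of S and M phase lie to the right with a median of 1.11, and Cdk4, Bbc3 and Plk3 lie to the left.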

How the data were processed

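RNA of 6 islet libraries was sequenced. The submitters' processing notes list DESeq2 1.16.1, featureCounts 1.5.0-p3, HISAT2 2.0.5 and GRCm38 patch 6; roles, settings and strand use were not given in the sources used here. The authors deposited FPKM values with gene lengths per the file headers. In each library FPKM times length was a whole multiple of a fixed step (100% within 0.1), which was read as reads. The deposited divisor already held a median-of-ratios factor (recomputed over 19623 genes: 1 in every library).

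Genes with a mean of at least 1 FPKM (14497) were tested with limma 3.58.1 (eBayes with trend) in R 4.3.3 on log2(FPKM + 0.5), two-sided, with Benjamini-Hochberg adjustment over all of them; fold changes on that scale understate changes of low genes. The test was tried on simulated data. Groups came from titles. Of 54556 identifiers, 53620 matched GENCODE M21; 0 per-sample columns were left unused.

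Members, lists and alternatives were chosen with earlier results of these data known. Named genes are the 10 members, up to 3 called genes with the largest log2 difference per pathway list, and the 3 genes most like the member with the largest fall (no member rose).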

Additional observations from a re-analysis of the deposited data

How the results depend on the processing

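Settings tried were pseudocounts of 0.1 and 1, no filter and a filter at 5 FPKM, own-total, TMM and quantile scaling, the replicate block, leaving out libraries, and voom on recovered reads, which was added after the data were seen. Count tests were not run, since the values are FPKM. Over all genes 4935 were called, 3090 with the filter at 5 FPKM (fewer genes tested), 8266 with own-total scaling (7550 higher and 716 lower, against 2446 and 2489), 2713 to 4213 without 1 library (lowest without replicate 3 labelled knockout) and 1132 without replicates 2 and 3 labelled knockout (fewer libraries). Of the 10 genes 4 were higher and 1 lower with own-total scaling, and 1 was lower without replicates 2 and 3 labelled knockout; without any 1 library 2 were lower and 0 higher.

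With own-total scaling Ccnd1 was at 0.44, Ccnd2 -0.070, Ccnd3 0.46, Trp53 0.46, Mdm2 0.50, Cdkn1a 0.61, Cdkn1b 0.20, Cdkn2c 0.19 and Ring1 0.15; by construction this scaling shifts all genes together. Without replicates 2 and 3 labelled knockout, which leaves 1 library in that group, Ccnd2 was at -0.50 and Cdkn1a at -0.31. Leaving out 1 library gave -0.00041 (without flox/flox replicate 1) to 0.060 for Ccnd1, -0.15 (without flox/flox replicate 1) to 0.67 (without flox/flox replicate 2) for Cdkn1a, with -0.017 without replicate 2 labelled knockout, and -0.017 (without flox/flox replicate 3) to 0.15 for Trp53; beyond the libraries themselves the cause was not tested.

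The labels do not say whether replicate numbers pair the libraries, and the data could not settle it. Deviations from the group means correlated at 0.0811, 0.0751 and 0.0423 between libraries of the same number. Between libraries of different numbers they correlated at -0.0679 to -0.0106. Each library thus correlated best with its own number, which comes from the data and not the design. Deviations within a group cancel, so positive values at the same number by themselves push those at different numbers below 0. No pairing is read from this. The main test took the libraries as unpaired. With the replicate block 4659 genes were called, with Ccnd2 at -0.47 (limma adjusted p = 0.0139), Plk2 at -1.01 (adjusted p = 0.00208) and Cdkn1a at 0.23 (adjusted p = 0.271); the counts among the 10 genes were the same. Of 17 named pathway genes 1, Ring1, lost its call under the block, 7 with no filter (Cdk2, Rbl2, Fbxo31, Kmt2a, Ring1, Hipk2 and Perp), 3 with quantile scaling (Cdk2, Rbl2 and Ezh2), and 12 of 15 without replicates 2 and 3 labelled knockout. Depth limits Cdkn2a, with 53 reads over the libraries labelled knockout and 26 over flox/flox.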
